A study of Mus musculus with 21 samples.

Results

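The 10 genes described here encode heat shock chaperones and were chosen by name: *Hspa1a*, *Hspa1b*, *Hspa8*, *Hsph1*, *Dnajb1*, *Hsp90aa1*, *Hsp90ab1*, *Hspb1*, *Hspd1* and *Hspe1*. All 10 were among the 21654 genes of the deposited count table. All 10 also passed the High Filter of the study, a mean of at least 50 reads per library over the 21 libraries, as did 12768 genes in all. They are often listed together as chaperones of the cytosol, which does not hold for *Hspd1* and *Hspe1*, whose proteins form the chaperonin of the mitochondrial matrix.

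As background, heat shock chaperones bind proteins that are unfolded or newly made, keep them from clumping and help them fold. HSP70 proteins take up clients handed over by J-domain proteins, nucleotide exchange factors such as HSP110 let the clients go, and HSP90 acts late in folding on kinases and steroid receptors. Under heat and other stresses the transcription factor HSF1 binds repeats of a short sequence in the promoters of the inducible members, whereas *Hspa8* and *Hsp90ab1* are transcribed at high levels in unstressed cells, neurons included. Prolonged wake is known to raise several heat shock transcripts in the rodent forebrain.

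Gene expression was measured by RNA-seq of polyA RNA from the ventral hypothalamus (VH; the labels name it circumventricular hypothalamus) of male C57/B6J mice that were 12 to 14 weeks old when acquired. Mice ate regular chow (RC) or a high-fat diet (HFD), and some underwent a diet switch (DS) to the other diet a week before tissue was taken. RC NoDS mice (n = 5 libraries) stayed on RC, RC → HFD mice (n = 6) were switched from RC to HFD, HFD → RC mice (n = 5) were switched from HFD to RC, and HFD NoDS mice (n = 5) stayed on HFD. Mice of all 4 groups were kept awake for 3 h with unfamiliar objects and were killed in the middle of the light phase, at ZT6 (6 h after lights on). No group was left undisturbed, so an effect of the forced wake itself cannot be read from these libraries. Each library pooled the RNA of 2 mice of the same group in equal amounts, so the spread between single mice was not measured.

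The deposited values are whole reads per gene. Library totals ran from 16383073 to 16390286 reads for RC NoDS, from 16383705 to 16390551 for RC → HFD, from 16381363 to 16390598 for HFD → RC and from 16380781 to 16389102 for HFD NoDS. The depth was the same in every library to within a small part, so reads of the same gene are given below without scaling for depth. Equal depth does not make the libraries alike in other ways, such as the capture of weakly transcribed genes described below. The 10 genes together took a median of 0.628% of a library's reads. Within groups, the 45 pairs of libraries differed by 6.88 to 42.0 times the squared difference that the sampling of reads alone gives, so no library was a copy of another of its group.

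Genes that mark the VH were present in the table. Of the markers of the arcuate nucleus, all 5 of 5 passed the High Filter, and the most abundant, *Pomc*, averaged 8304 reads per library. The 5 markers of the ventromedial nucleus, led by *Gda*, summed to between 3933 and 9107 reads per library. Those of the paraventricular nucleus, where *Avp* was the most abundant and *Crh* the least (8.14 reads on average), summed to between 5077 and 31677. Neuron markers, led by *Snap25*, summed to between 25592 and 33119 reads. No marker of the 12 lists was at 0 in every library. In bulk tissue, fewer cells of a type and less RNA per cell cannot be told apart, which holds for each value below.

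The libraries also differed in how many weakly transcribed genes they captured. Of the 3116 genes averaging from 5 to below 50 reads, the share with a count of 0 in a library was 3.22% ± 2.42 (SD; RC NoDS, n = 5), 16.3% ± 9.93 (HFD NoDS, n = 5), 11.9% ± 8.82 (RC → HFD, n = 6) and 16.5% ± 10.3 (HFD → RC, n = 5). The highest shares were 32.9% in HFD NoDS replicate 20 and 31.9% in HFD → RC replicate 17. Because the mean share was lowest in RC NoDS, comparisons below were also fitted with it as a covariate, an alternative chosen after seeing the data.

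On the scale of reads per kilobase of exon, with all annotated exons of a gene joined, the highest level among the 10 genes belonged to *Hsp90ab1*, with a mean of 14882 reads per kilobase over the 21 libraries, above 99.9% of the 12768 genes tested. *Hspa8* followed with 6596 reads per kilobase and *Hsp90aa1* with 3570. *Hsph1* (1373 reads per kilobase) and *Hspd1* (1288) had means ± SD that overlapped in every group. *Dnajb1* came next with 834 reads per kilobase, then *Hspe1* with 529 and *Hspb1* with 213. The heat-inducible pair *Hspa1a* (89.2 reads per kilobase) and *Hspa1b* (88.4) were the lowest of the 10, did not differ beyond their spread, and lay above 34.7% and 34.4% of the genes tested. The constitutive *Hspa8* had on average 118 ± 32.2 times as many reads as *Hspa1b* (SD, n = 21 libraries). Parts of this order depend on the length used. Per kilobase of the longest protein-coding transcript, an alternative chosen after seeing the data, *Hsph1* had 2543 reads and *Hspd1* 1405, and *Hspe1* (1008) came before *Dnajb1* (911) with means ± SD that overlapped in every group, while the other ranks were the same.

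**Figure D1:**
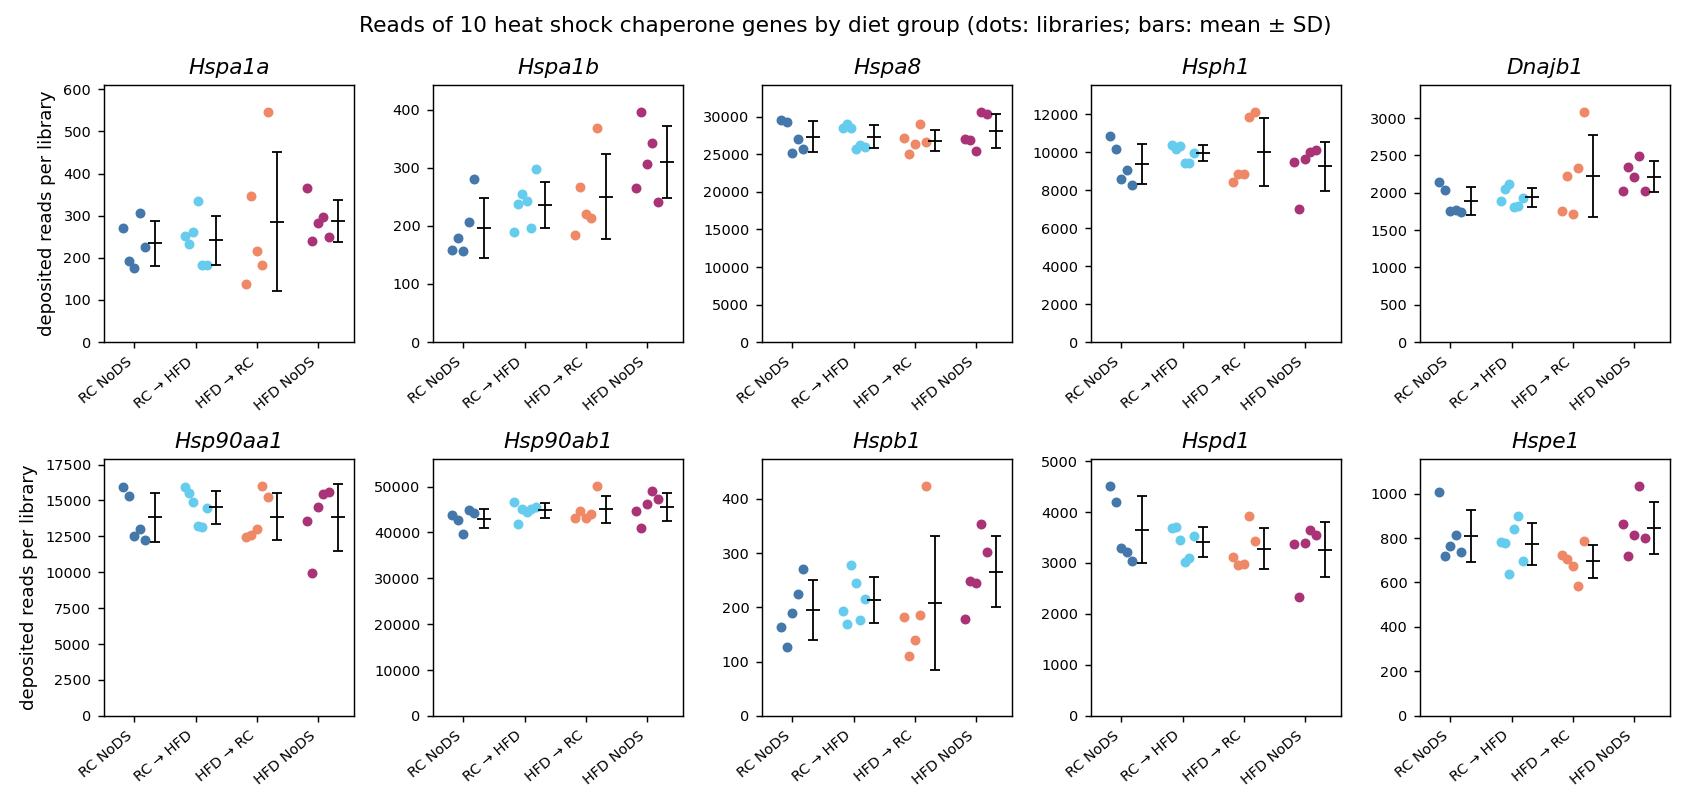
Deposited reads of each of the 10 chaperone genes (vertical axis) in the 4 diet groups (horizontal axis); each dot is a library, and the bars show the mean ± SD. *Hspa1b* ranged from 156 to 281 reads in RC NoDS and from 241 to 395 in HFD NoDS, and the groups of every gene overlapped.

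Among the HSP70 genes, *Hspa1b* had the widest difference between diet groups as a ratio of mean reads, which did not pass the test given below. *Hspa1b* (ENSMUSG00000090877, chr17:35093381-35096183 of mm9, minus strand) encodes an HSP70 that is made chiefly under stress. It had 158, 179, 156, 207 and 281 reads in the 5 RC NoDS libraries and 265, 395, 307, 342 and 241 in the 5 HFD NoDS libraries. In HFD → RC it had 184, 266, 220, 213 and 369 reads, and in RC → HFD the lowest, median and highest of 6 libraries were 189, 240.5 and 297. In HFD NoDS, 3 of 5 libraries were above every RC NoDS library, but RC NoDS replicate 6 lay within the HFD NoDS range, so the groups overlapped. The group means were 196 ± 51.7 (SD; RC NoDS, n = 5), 310.0 ± 61.3 (HFD NoDS, n = 5), 237 ± 39.7 (RC → HFD, n = 6) and 250 ± 72.5 (HFD → RC, n = 5).

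*Hspa1a* (ENSMUSG00000091971, chr17:35106144-35109069, minus strand), the neighbouring gene for a nearly identical inducible HSP70, is overlapped on the opposite strand by *Gm20481*. It had 271, 193, 177, 306 and 225 reads in RC NoDS and 366, 240, 282, 296 and 250 in HFD NoDS. In HFD → RC it had 139, 347, 216, 184 and 545 reads, and in RC → HFD 182, 242 and 336 were the lowest, median and highest. HFD → RC held both the lowest and the highest library of all 21, replicates 13 and 17, so its range covered the other 3 groups. The ratio of *Hspa1a* to *Hspa1b* reads within a library averaged 1.08 ± 0.301 (SD, n = 21) and ran from 0.608 in HFD NoDS replicate 20 to 1.72 in RC NoDS replicate 1.

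Sequence ties these 2 genes together. Of the 2827 windows of 100 bases, the read length, in the longest *Hspa1a* transcript, 1609 (56.9%) occur letter for letter in a transcript of another gene, namely *Hspa1b*, *Hspa1l* or *Gm20481*. For *Hspa1b* the count was 1350 of 2704 windows (49.9%). How the deposited counts treat reads that fit several genes was not analysed here, so the split of reads between *Hspa1a* and *Hspa1b* is less certain than their sum. With their reads summed, the log2 fold change of HFD NoDS over RC NoDS was 0.49 ± 0.19 (SE; edgeR adjusted p = 0.656).

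*Hspa8* (ENSMUSG00000015656, chr9:40609067-40613283, plus strand) encodes the constitutive HSP70 of the cytosol, which folds new proteins and strips clathrin from vesicles. Its introns hold the small nucleolar RNA genes *Snord14c*, *Snord14d* and *Snord14e*. It had between 24991 reads (HFD → RC replicate 14) and 30579 (HFD NoDS replicate 23) in the 21 libraries. Group means lay close together, at 27372 ± 2013 (SD; RC NoDS, n = 5), 28091 ± 2294 (HFD NoDS, n = 5), 27359 ± 1509 (RC → HFD, n = 6) and 26845 ± 1446 (HFD → RC, n = 5). All differences between groups were smaller than 1 SD.

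*Hsph1* (ENSMUSG00000029657, chr5:150416862-150438951, minus strand) encodes an HSP110 protein, which exchanges the nucleotide of HSP70 and helps to dissolve protein clumps. It had 10843, 10150, 8593, 9066 and 8288 reads in RC NoDS and 9465, 7029, 9667, 10019 and 10102 in HFD NoDS. The HFD → RC libraries had 8413, 8867, 8845, 11847 and 12100 reads, and in RC → HFD 9420, 10091 and 10396 were the lowest, median and highest. The libraries of HFD → RC fell into 3 low and 2 high values, HFD NoDS replicate 20 was the lowest of all 21, and all groups overlapped.

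*Dnajb1* (ENSMUSG00000005483, chr8:86132074-86135801, plus strand) encodes HSP40, the J-domain protein that brings clients to HSP70 and is itself induced by heat. It had 2151, 2043, 1756, 1771 and 1741 reads in RC NoDS and 2025, 2345, 2208, 2489 and 2022 in HFD NoDS. The HFD → RC libraries had 1755, 2229, 1721, 2338 and 3076 reads, and in RC → HFD 1815, 1909.5 and 2116 were the lowest, median and highest. HFD NoDS lay mostly above RC NoDS, but RC NoDS replicates 1 and 2 lay within its range, and HFD → RC replicate 17 was the highest of all 21 libraries.

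Of the HSP90 genes, *Hsp90aa1* (ENSMUSG00000021270, chr12:111928815-111940938, minus strand) encodes the inducible form. It had 15961, 15322, 12515, 13009 and 12278 reads in RC NoDS and 13574, 9936, 14557, 15462 and 15608 in HFD NoDS. In HFD → RC it had 12441, 12604, 13030, 15992 and 15268 reads, and in RC → HFD 13178, 14655.5 and 15937 were the lowest, median and highest. HFD NoDS replicate 20 was the lowest of the 21 libraries, and the others spread over much the same range in every group.

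*Hsp90ab1* (ENSMUSG00000023944, chr17:45704724-45710220, minus strand) encodes the constitutive form of HSP90. It ranged from 39626 reads (RC NoDS replicate 3) to 50082 (HFD → RC replicate 17), with group means of 43044 ± 2066 (SD; RC NoDS, n = 5), 45596 ± 3085 (HFD NoDS, n = 5), 44817 ± 1685 (RC → HFD, n = 6) and 45028 ± 2890 (HFD → RC, n = 5). The ratio of *Hsp90ab1* to *Hsp90aa1* reads averaged 3.21 ± 0.34 (SD, n = 21), from 2.69 in RC → HFD replicate 8 to 4.11 in HFD NoDS replicate 20.

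*Hspb1* (ENSMUSG00000004951, chr5:136363789-136365433, plus strand) encodes HSP27, a small heat shock protein that holds unfolded clients without using ATP. It had 164, 126, 189, 224 and 271 reads in RC NoDS and 179, 249, 244, 354 and 302 in HFD NoDS. Its HFD → RC libraries had 182, 111, 139, 185 and 423 reads, and in RC → HFD 170, 204.5 and 278 were the lowest, median and highest. HFD → RC held the lowest and the highest library of all 21, and the groups overlapped throughout. Of its 831 windows of 100 bases, 331 (39.8%) recur in *Gm9817*.

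The mitochondrial chaperonin is built from the HSP60 barrel of *Hspd1* and the HSP10 lid of *Hspe1*, which are neighbouring genes on opposite strands with overlapping ends. *Hspd1* (ENSMUSG00000025980, chr1:55134679-55145087, minus strand) had 4506, 4201, 3299, 3220 and 3046 reads in RC NoDS and 3373, 2323, 3398, 3657 and 3547 in HFD NoDS. Among HFD → RC libraries it had 3127, 2965, 2976, 3923 and 3426 reads, and in RC → HFD 3021, 3489 and 3710 were the lowest, median and highest. RC NoDS replicates 1 and 2 were the highest of all 21 libraries and HFD NoDS replicate 20 the lowest.

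*Hspe1* (ENSMUSG00000073676, chr1:55144976-55148151, plus strand) had 1009, 717, 764, 815 and 737 reads in RC NoDS and 865, 717, 813, 1033 and 800 in HFD NoDS. In HFD → RC it had 725, 705, 673, 586 and 787 reads, and in RC → HFD 637, 778.5 and 900 were the lowest, median and highest. HFD → RC lay mostly below HFD NoDS, with overlap. The ratio of *Hspd1* to *Hspe1* reads, 4.43 ± 0.818 on average (SD, n = 21), ran from 3.24 in HFD NoDS replicate 20 to 6.69 in HFD → RC replicate 16.

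Mice held on HFD were first compared with mice held on RC, which differ in both diet and body weight. No chaperone passed the test. With the edgeR quasi-likelihood F-test, and p-values adjusted by Benjamini-Hochberg over the 12768 genes, 0 of the 10 chaperones were called at an adjusted p under 0.15, the threshold of the study, beside 10 genes of all tested (0.0783%). At an unadjusted p under 0.05 there were 2, *Hspa1b* and *Dnajb1*, beside 7.41% of all genes. DESeq2 and limma-voom also called 0, beside 17 and 10 of all genes. They had 2 and 3 chaperones at an unadjusted p under 0.05, beside 1004 and 982 of the 12768 genes. The median log2 fold change of HFD NoDS over RC NoDS was 0.09 over the 10 chaperones and 0.01 over all genes tested. None of the 10 had groups apart, meaning every library of one group above every library of the other, beside 114 (0.893%) of all genes.

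The highest estimate was that of *Hspa1b*, 1.60-fold, a log2 fold change of 0.68 ± 0.20 (SE) with a 95% confidence interval from 0.27 to 1.09, at an edgeR adjusted p of 0.607 (unadjusted p = 0.00214). With the share of 0 counts as a covariate its log2 fold change was 0.37 (adjusted p = 0.999) and its group-centred values correlated with that share, as given further on. Over the libraries left out in turn, the log2 fold change ran from 0.57 without HFD NoDS replicate 20 to 0.85 without RC NoDS replicate 6, and the adjusted p was 0.192 in the latter, the lowest of any of the 10 genes in any fit. *Hspb1* had a log2 fold change of 0.46 ± 0.27 (SE; adjusted p = 0.688), which was 0.25 with the covariate. *Hspa1a* had 0.31 ± 0.26 (SE), and *Dnajb1* had 0.25 ± 0.11 (SE; adjusted p = 0.657), or 0.11 with the covariate. The shares of these groups did not overlap, being at most 7.22% in RC NoDS and at least 7.70% in HFD NoDS. The covariate fit therefore could not tell the share of 0 counts and the diet apart. The part of that share in these differences was not tested further.

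The remaining chaperones differed less between the same groups, with intervals narrower than that of *Hspa1b*. The log2 fold change of *Hspa8* was 0.06 with a 95% confidence interval from −0.06 to 0.17, and that of *Hsp90ab1* was 0.10 with an interval from 0.00 to 0.20. *Hsp90aa1* had 0.02 (from −0.17 to 0.21) and *Hsph1* had 0.00 (from −0.20 to 0.19), and both turned sign when single libraries were left out. *Hspd1* had −0.15 (from −0.37 to 0.07) and *Hspe1* had 0.08 (from −0.15 to 0.32). With any 1 library left out, *Hspd1* ran from −0.21 to −0.053, *Hspe1* from 0.0044 to 0.17 and *Hspa8* from 0.027 to 0.091.

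The switched groups RC → HFD and HFD → RC have similar body weights in the study's design and opposite current diets. Here 0 of the 10 chaperones were called by edgeR, beside 1 gene of all tested (0.00783%). At an unadjusted p under 0.05 there were 0 by edgeR, DESeq2 and limma-voom alike, beside 5.35% of all genes by edgeR. DESeq2 and limma-voom had 733 and 664 genes with such a p. They also called 0 chaperones, beside 5 and 1 of all genes. The median log2 fold change of HFD → RC over RC → HFD was −0.01 over the chaperones and 0.00 over all genes. The widest estimates were *Hspa1a* with 0.24 ± 0.25 (SE), *Dnajb1* with 0.20 ± 0.10 (edgeR adjusted p = 0.965) and *Hspe1* with −0.15 ± 0.11. *Hspa1b* had 0.08 with an interval from −0.31 to 0.47, and without HFD → RC replicate 17 *Hspa1a* had −0.12. With any 1 library left out, *Dnajb1* ran from 0.056 to 0.27 and *Hspe1* from −0.20 to −0.095. No chaperone had these groups apart, beside 62 (0.486%) of all genes.

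For the switch from RC to HFD, the test of RC → HFD against RC NoDS called 0 of the 10 chaperones in edgeR, beside 5 genes of all tested (0.0392%). None had an unadjusted p under 0.05 in edgeR, DESeq2 or limma-voom, beside 6.51% of all genes in edgeR. DESeq2 and limma-voom had 857 and 858 genes with such a p. They also called 0 chaperones, beside 15 and 5 of all genes. The widest estimate was *Hspa1b*, with a log2 fold change of RC → HFD over RC NoDS of 0.29 ± 0.19 (SE, edgeR adjusted p = 0.873). With any 1 library left out it ran from 0.21 to 0.46. For the switch from HFD to RC, HFD NoDS against HFD → RC, 0 of 10 were called by edgeR, DESeq2 and limma-voom. Over all genes, edgeR called 9 (0.0705%), DESeq2 44 and limma-voom 12. An unadjusted p under 0.05 was found for 7.93% of all genes in edgeR, 1080 genes in DESeq2 and 1053 in limma-voom. Of the chaperones, *Hspe1* alone had such a p in each tool. Its log2 fold change of HFD → RC over HFD NoDS was −0.28 ± 0.11 (SE; edgeR adjusted p = 0.546), between −0.32 and −0.20 with any 1 library left out.

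RC NoDS and HFD → RC ate the same diet when tissue was taken but differed in earlier diet. By edgeR, DESeq2 and limma-voom 0 of 10 chaperones were called, beside 36 (0.282%), 147 and 7 of all genes in turn. An unadjusted p under 0.05 was found for 8.1% of all genes in edgeR, 1079 genes in DESeq2 and 1064 in limma-voom. Beside these, 1 chaperone in each tool had such a p. This was *Dnajb1*, with a log2 fold change of HFD → RC over RC NoDS of 0.26 ± 0.11 (SE; adjusted p = 0.535). Without HFD → RC replicate 17 it was 0.12, and with the share of 0 counts as a covariate 0.10. *Hspa1b* had 0.37 ± 0.20 (SE, edgeR adjusted p = 0.663), between 0.20 and 0.54 with any 1 library left out.

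RC → HFD and HFD NoDS both ate HFD. Of the chaperones 0 of 10 were called by edgeR, beside 2 of all genes (0.0157%). At an unadjusted p under 0.05 there were 0 in edgeR, beside 7.49% of all genes. DESeq2 and limma-voom had 1 each, beside 1024 and 972 of all genes. They also called 0 chaperones, beside 32 and 2 of all genes. *Hspa1b* had a log2 fold change of HFD NoDS over RC → HFD of 0.38 ± 0.19 (SE; adjusted p = 0.677). Between HFD NoDS and HFD → RC it had −0.30 ± 0.20 (SE, edgeR adjusted p = 0.727), and from −0.48 to −0.19 with any 1 library left out. These comparisons share groups and so are not independent of one another. For *Hspa1b* the order of the group means was RC NoDS, RC → HFD, HFD → RC and HFD NoDS, and neighbours in that order overlapped.

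Whether the difference between current HFD and current RC depended on the earlier diet was tested as an interaction. It called 0 of 10 chaperones in edgeR, DESeq2 and limma-voom, beside 4 (0.0313%), 116 and 15 of all genes in turn. In any of the 3 tools 0 had an unadjusted p under 0.05. Of all genes 8.84% had such a p in edgeR, beside 1192 genes in DESeq2 and 1172 in limma-voom. The lowest adjusted p was that of *Hspe1* (0.578, a difference of 0.32 ± 0.16 on the log2 scale, SE). Over all 4 groups at once 0 of 10 were called by the 3 tools, beside 19 genes (0.149%) in edgeR, 133 in DESeq2 and 13 in limma-voom. *Hspa1b* had the lowest adjusted p (0.540) and was the only chaperone with an unadjusted p under 0.05 in edgeR, beside 7.97% of all genes. DESeq2 had 2 such chaperones beside 1192 of all genes, and limma-voom 1 beside 1040.

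The chaperones differed from one another in how much they varied between libraries of the same diet. For each gene, log2 CPM (reads scaled to a common library size, on a log2 scale) was centred on the mean of each group, and the SD of what remained was taken over the 21 libraries. It was widest for *Hspb1* (0.46, above 89.3% of the genes tested), *Hspa1a* (0.46, above 88.9%) and *Hspa1b* (0.32, above 73.6%), the 3 genes with the fewest reads. Against genes with mean reads within 0.5 log2 of their own, *Hspb1* was above 91.9%, *Hspa1a* above 94.2% and *Hspa1b* above 60.2%. *Hspd1* (0.20), *Dnajb1* (0.19), *Hsp90aa1* (0.17) and *Hsph1* (0.17) had lower SDs, yet were above 91.5%, 85.3%, 92.0% and 90.9% of genes of like reads. *Hspe1* had 0.18, above 45.7% of its like. The constitutive *Hspa8* (0.09) and *Hsp90ab1* (0.07) were above 3.12% and 1.26% of all genes tested. Few genes have like reads, 51 for *Hspa8* and 14 for *Hsp90ab1*, with a median SD of 0.10 for each set, and the 2 genes were above 29.4% and 14.3% of these.

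Within diet groups, *Hsp90aa1*, *Hspd1* and *Hsph1* varied together from library to library. Over the 21 group-centred values, *Hsp90aa1* and *Hspd1* had a Pearson r of 0.95 (permutation p = 1e-05, the smallest that 100000 permutations within groups can give) and a Spearman rho of 0.91 (permutation p = 2e-05). Each was the other's closest gene among all 12767 other genes tested, although their proteins work in different compartments. *Hsph1* and *Hsp90aa1* had r = 0.93 and rho = 0.94 (permutation p = 1e-05 for each), and *Hsp90aa1* was the gene closest to *Hsph1*. *Hsph1* and *Hspd1* had r = 0.87 (permutation p = 1e-05) and rho = 0.83 (permutation p = 3e-05). HFD NoDS replicate 20 was the lowest library for all 3 genes. Without that library and the next farthest from the median, r was 0.92, 0.90 and 0.85 for the 3 pairs.

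Genes other than chaperones also had high correlations with these 3. *Hsp90aa1* had r above 0.8 with 195 of the 12767 other genes (1.53%), *Hspd1* with 180 (1.41%) and *Hsph1* with 58 (0.454%), whereas *Hspe1* and *Hspb1* had 0 such genes. Group-centred values of the oligodendrocyte marker sum went the other way. The 5 markers, all past the High Filter and led by *Mbp* with 31251 reads on average, summed to between 35872 reads (RC NoDS replicate 1) and 132123 (HFD → RC replicate 14). The group means of the sum were 43819 ± 8331 (SD; RC NoDS, n = 5), 66980 ± 24008 (HFD NoDS, n = 5), 50644 ± 7389 (RC → HFD, n = 6) and 82400 ± 34288 (HFD → RC, n = 5). With its log2 value *Hsph1* had r = −0.67 (permutation p = 0.0109) and rho = −0.70 (permutation p = 0.00519), and r = −0.60 without the 2 farthest libraries. *Hsp90aa1* had r = −0.56 (permutation p = 0.0213) and rho = −0.57 (permutation p = 0.0209), with r = −0.49 without 2 libraries. *Hspd1* had r = −0.50 (permutation p = 0.0318) and rho = −0.45 (permutation p = 0.0535), with −0.39 without 2. Of all genes tested 15.4% had a permutation p under 0.05 with this sum. The part of the marker level in the correlations between chaperones was not tested.

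**Figure D2:**
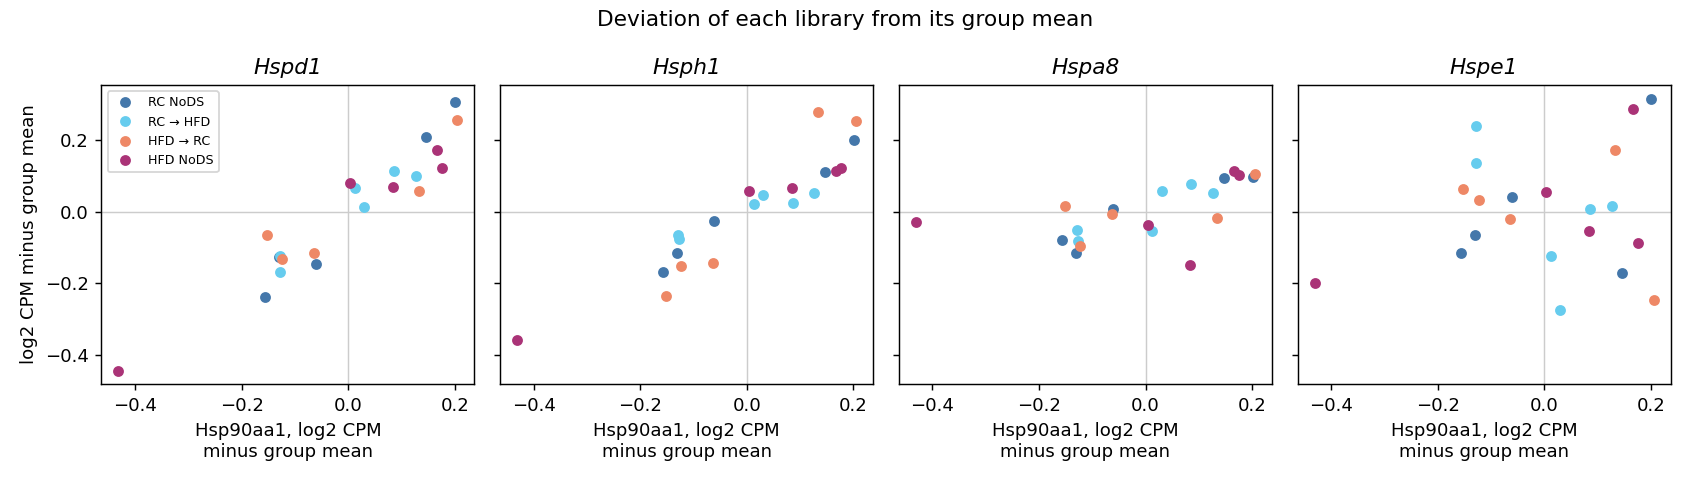
Log2 CPM of 4 chaperones (vertical axes) against *Hsp90aa1* (horizontal axis), each as its difference from the group mean; every dot is 1 of 21 libraries, coloured by diet group. *Hspd1* (r = 0.95) and *Hsph1* (r = 0.93) lie along a line with HFD NoDS replicate 20 at the low end, *Hspa8* (r = 0.61) is looser, and *Hspe1* (r = 0.15) shows no line.

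The subunits of the mitochondrial chaperonin were not closely correlated. *Hspd1* and *Hspe1*, which share a promoter region, had r = 0.16 (permutation p = 0.529) and rho = 0.05 (permutation p = 0.845), and r = 0.01 without the 2 farthest libraries. *Hspa8* had r = 0.63 with *Hspd1* (permutation p = 0.0113; rho = 0.71, permutation p = 0.00203; r = 0.72 without 2 libraries). With *Hsp90aa1* it had r = 0.61 (permutation p = 0.0134; rho = 0.70, permutation p = 0.00232; r = 0.67 without 2). After a linear trend on GC content and transcript length was taken off each library, an alternative chosen after seeing the data, r of *Hsp90aa1* and *Hspa8* was 0.41 (permutation p = 0.0874). The same step left the 3 pairs of *Hsp90aa1*, *Hspd1* and *Hsph1* at r from 0.81 to 0.93. It raised *Hsp90aa1* and *Hsp90ab1* from 0.45 (permutation p = 0.0772) to 0.71 (permutation p = 0.0011), and *Hsph1* and *Dnajb1* from 0.57 (permutation p = 0.0618) to 0.73 (permutation p = 0.0116). Without this step but with a library left out, r of *Hsp90aa1* and *Hsp90ab1* ran from 0.22 to 0.56. The lowest value was without HFD NoDS replicate 20 (permutation p = 0.45). That of *Hsph1* and *Dnajb1* ran from 0.41 to 0.80.

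Neither inducible HSP70 gene had a permutation p under 0.05 with *Hsp90aa1*, *Hspd1* or *Hsph1*. *Hspa1a* had r = 0.16, 0.01 and 0.34 with them in that order. *Hspa1b* had r = −0.27 with *Hsp90aa1* (permutation p = 0.276), which was −0.02 with the share of 0 counts taken off and 0.34 with the GC and length trend taken off. With *Hspd1* it had −0.39 (permutation p = 0.12), or −0.19 and −0.05 with the same taken off. *Hspa1a* and *Hspa1b* had r = 0.47 (permutation p = 0.0702) and rho = 0.40 (permutation p = 0.118), which rested on HFD → RC replicates 17 and 13, since r was 0.14 without them. *Hspa1a* and *Dnajb1* had r = 0.55 (permutation p = 0.123), and 0.03 without the same 2 libraries. The only chaperone with which *Hspa1a* had a permutation p under 0.05 was *Hsp90ab1*, with r = 0.54 (permutation p = 0.0189) and rho = 0.48 (permutation p = 0.0368), and r was 0.31 without the 2 libraries. *Hspa1b* and *Hspb1* had r = 0.54 (permutation p = 0.0379) and rho = 0.43 (permutation p = 0.0822), and r was 0.31 without HFD → RC replicate 17 (permutation p = 0.247) and 0.45 with the GC and length trend taken off (permutation p = 0.119). *Hsp90ab1* and *Hspb1* had r = 0.56 (permutation p = 0.0271) and rho = 0.51 (permutation p = 0.0327), with r = 0.33 without HFD → RC replicate 17 (permutation p = 0.224).

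**Figure D3:**
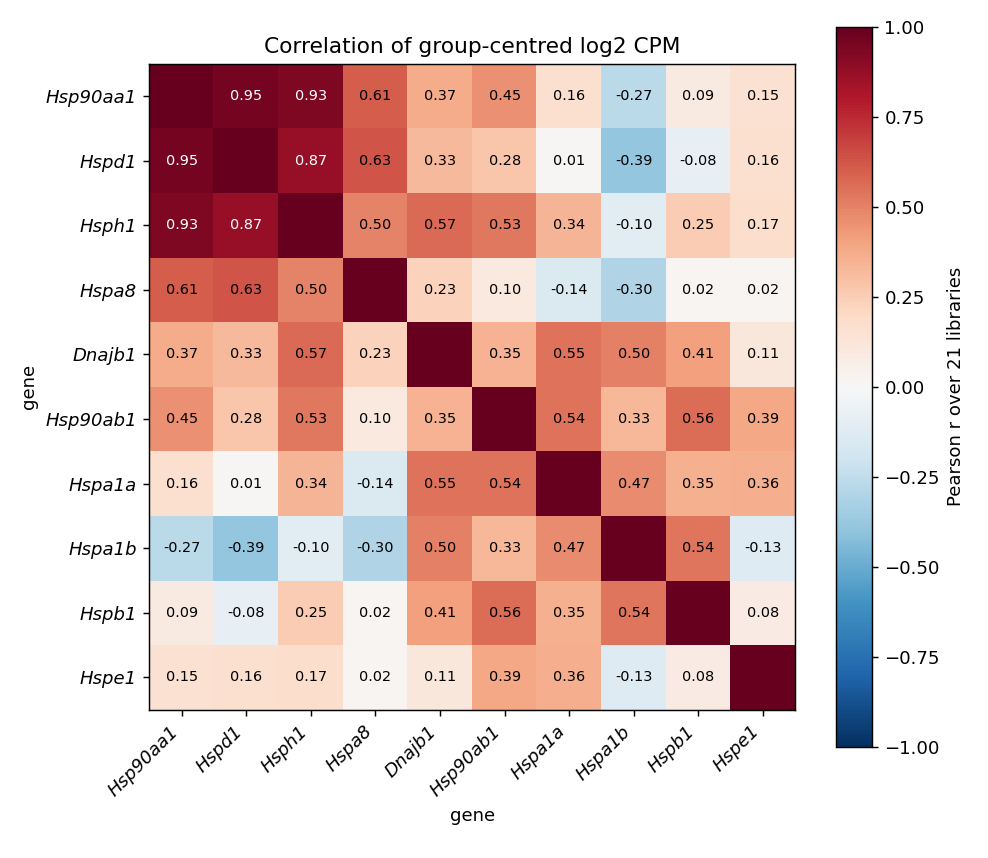
Pearson r between the 10 chaperones over 21 libraries, from log2 CPM with group means taken off; both axes list the genes and the colour runs from −1 to 1. *Hsp90aa1*, *Hspd1* and *Hsph1* form the block with r from 0.87 to 0.95, and 7 of the 45 pairs are below 0.

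In all, the median r of the 45 pairs was 0.33, with 12 pairs above 0.5, 3 above 0.8 and 7 below 0, and 10 pairs had a permutation p under 0.05, not adjusted for the 45. Over the pairs of the 10 chaperones with every other gene tested, the median r was −0.01, 6.88% were above 0.5, 0.352% above 0.8 and 50.6% below 0, and 15.4% had such a p, from 3.85% for *Hspe1* to 31.1% for *Hspd1*. Without the removal of group means 16 pairs had such a p. The count was 6 without HFD NoDS replicate 23 and also 6 without HFD → RC replicate 17, and 14 without HFD NoDS replicate 20.

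For 130 relations of the 10 genes with 13 measures of the library, the share of 0 counts and the sums of 12 marker lists, 15 had a permutation p under 0.05, not adjusted for the 130. Over all genes tested 10.7% of such relations had one, so the count is near the background and is not a result about the chaperones. The relations below are a description. The share of all genes with such a p was 16.6% for the share of 0 counts, 10.9% for ependyma and tanycytes, 9.91% for the ventromedial nucleus and 18.5% for endothelium and pericytes. *Hspa1b* had r = 0.61 with the share of 0 counts (permutation p = 0.00579) and rho = 0.53 (permutation p = 0.0254). Without HFD NoDS replicate 20 and HFD → RC replicate 17, the libraries with the highest shares, r was 0.39. *Hspa1a* had r = 0.66 with the markers of ependyma and tanycytes (permutation p = 0.00392; rho = 0.73, permutation p = 0.0021; r = 0.69 without 2 libraries), whose 5 genes, led by *Col23a1*, summed to between 4187 and 7475 reads. *Hsp90ab1* had r = 0.59 with the same markers (permutation p = 0.00777) and rho = 0.57 (permutation p = 0.0104), with 0.68 without 2. With the markers of the ventromedial nucleus it had r = −0.70 (permutation p = 0.00356; rho = −0.71, permutation p = 0.00178; r = −0.69 without 2). That sum had a median of 6159 reads and was led by *Gda*, with 3589 reads on average. *Hspd1* had r = −0.57 with the markers of endothelium and pericytes (permutation p = 0.00653; rho = −0.49, permutation p = 0.0473; r = −0.42 without 2), whereas *Hspa1b* had 0.54 (permutation p = 0.0465; rho = 0.31, permutation p = 0.224). Of the 15 relations, these and the 3 with oligodendrocyte markers are given, picked after their values were seen. The remaining 6 are *Hspa1a* with the lateral hypothalamus (r = −0.42), *Hsp90aa1* with endothelium and pericytes (−0.46), *Hsp90ab1* with neurons (−0.50) and with the arcuate nucleus (0.52), and *Hspb1* with the choroid plexus (0.55) and with the ventromedial nucleus (−0.57). Of the 5 choroid plexus markers only 2 passed the High Filter, and *Clic6*, with 842 reads on average, led their sum. What part the sampled mix of cells has in these relations was not tested.

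The genes whose group-centred values were most like each chaperone's, the 3 highest r of 12767 over 21 libraries, are given as a description. *Hsp90aa1* was nearest to *Hspd1*, then to *Hsp90b1* (r = 0.95), the HSP90 of the endoplasmic reticulum, and *Smarca1* (0.94). *Hspd1* was followed by *Fxr1* (0.91) and *Eif4a2* (0.91) after *Hsp90aa1*. *Hsph1* had *Hsp90aa1*, *Spata5* (0.90) and *Hspa4l* (0.89), another HSP110. *Hsp90ab1* had *Nes* (0.88), *Stip1* (0.85), which links HSP70 to HSP90, and *Hmgn2* (0.83). *Hspa8* had *Glrx3* (0.83), *Rrn3* (0.83) and *Glo1* (0.82). *Hspa1a* had *Hmgn1* (0.85), *Fam108c* (0.78) and *Ltbr* (0.77), and *Hspa1b* had *Calcoco1* (0.84), *Gna11* (0.79) and *Mrpl14* (0.79). *Dnajb1* had *Ppil4* (0.86), *Tbccd1* (0.83) and *Pitpnb* (0.77). The lowest were those of *Hspb1*, with *E130012A19Rik* (0.77), *Dhx8* (0.77) and *Zfp341* (0.75), and of *Hspe1*, with *Sh3rf1* (0.73), *Ndufb11* (0.71) and *Fam71e1* (0.69).

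Other genes were taken from 13 lists written from general knowledge. Most lists hold genes of protein folding, and the others hold immediate early, glucocorticoid-responsive and cold-inducible genes. No gene of these lists was called in any of the 8 tests except *Rbm3*, by edgeR, and otherwise the 2 genes of each list with the lowest p over the 4 groups are named. Among the 4 genes of the heat shock factors and of *Hsbp1*, whose protein binds HSF1, the median log2 fold change was 0.05 for HFD NoDS over RC NoDS and 0.08 for HFD → RC over RC → HFD, beside 0.01 and 0.00 over all genes. *Hsf4* had 0.24 and *Hsf2* −0.28 in the first of these. For the other 6 tested genes of cytosolic HSP70 and HSP110 the medians were 0.01 and −0.01, with *Hspa12a* at 0.07 and *Hspa14* at −0.09 in the first. The 9 other J-domain genes had medians of −0.09 and 0.03, with *Dnaja4* at −0.09 and *Dnajb2* at 0.11. The 11 co-chaperones of HSP90 had −0.07 and 0.00, with *Stip1* at 0.16 and *Ahsa1*, which speeds up the ATPase of HSP90, at 0.15.

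For the 5 nucleotide exchange factors the medians were 0.01 and 0.04, and *Bag3* had 0.19 and 0.30 and *Bag2* −0.10 and −0.15 in the same order. Of the small heat shock proteins 4 were tested, with medians of 0.00 and 0.25. *Cryab*, the alpha-B crystallin, had 0.69 ± 0.22 (SE; edgeR adjusted p = 0.640) and 0.51 ± 0.21 (adjusted p = 0.899), and its widest difference was HFD → RC over RC NoDS, 0.83 ± 0.22 (SE; adjusted p = 0.164), which was not called. Its mean reads were lowest in RC NoDS (1052), then in RC → HFD (1296), HFD NoDS (1668) and HFD → RC (1842), the order of the oligodendrocyte marker sum given above, whose part in this was not tested. *Hspb8* had 0.12 and 0.30. The 8 subunits of TRiC, the chaperonin of the cytosol that folds actin and tubulin, had medians of −0.08 in each comparison, with *Tcp1* at −0.24 and −0.02 and *Cct2* at −0.01 and −0.13. The 9 other mitochondrial chaperones and proteases had 0.02 and 0.01. *Hscb*, a J-domain protein of iron-sulfur assembly, had −0.09 and −0.77 ± 0.25 (SE; adjusted p = 0.823), with −0.89 ± 0.26 (SE; adjusted p = 0.206) for HFD → RC over RC NoDS, and *Lonp1* had 0.12 and 0.13.

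The 13 chaperones of the endoplasmic reticulum had medians of 0.04 and −0.03, with *Sdf2l1* at 0.37 ± 0.13 (SE; edgeR adjusted p = 0.640) and −0.07, and *Calr* at 0.09 and −0.06. The list of 13 other genes that HSF1 is known to drive had 0.12 and 0.00, with *Cryab* and *Hspb8* again named. It is not a separate set, since it shares these and genes such as *Bag3*, *Stip1* and *Ahsa1* with the lists above. The 9 tested immediate early genes, markers of recent neuronal activity, had 0.14 and 0.07, with *Egr1* at −0.21 and 0.33 and *Arc* at 0.02 and 0.08. The 7 genes that respond to glucocorticoids had −0.10 and 0.08, with *Sgk1* at 0.14 and 0.62 ± 0.20 (SE; adjusted p = 0.789) and *Sult1a1* at −0.08 and −0.01.

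The list of 2 cold-inducible RNA-binding genes held *Rbm3*, whose transcript rises at lower temperature, and *Cirbp*, with medians of −0.19 and 0.27. *Rbm3* averaged 955 ± 82.7 reads (SD; RC NoDS, n = 5), 756 ± 45.6 (HFD NoDS, n = 5), 609.0 ± 58.2 (RC → HFD, n = 6) and 812 ± 131 (HFD → RC, n = 5). It was lower in RC → HFD than in RC NoDS, with a log2 fold change of −0.62 (edgeR adjusted p = 0.00433), and was called over all 4 groups (adjusted p = 0.0319). The log2 fold change lay between −0.67 and −0.59 with any 1 library left out, and was −0.57 with the share of 0 counts as a covariate (adjusted p = 0.037). Across libraries of a group the median r of the 2 genes was −0.68 with *Hsph1*, −0.61 with *Hsp90aa1* and −0.56 with *Hspd1*.

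By the same measure, the 8 TRiC subunits had a median r of 0.76 with *Hspd1*, 0.72 with *Hsp90aa1*, 0.65 with *Hspa8* and 0.62 with *Hsph1*, but −0.41 with *Hspa1b* and 0.07 with *Hspe1*. The highest single values were *Cct4* with *Hspd1* (0.89) and *Cct3* with *Hsp90aa1* (0.84). The list of the endoplasmic reticulum (ER) had medians of 0.35 with *Hsp90aa1*, 0.19 with *Hspd1* and 0.49 with *Hsph1*, and the glucocorticoid list −0.35, −0.36 and −0.37. For the other chaperones the median of the glucocorticoid list ran from −0.14 (*Hspa8*) to 0.33 (*Hspa1b*). With *Hsp90aa1* and *Hspd1* the medians of the remaining lists lay between −0.19 and 0.20, yet some held single genes with a high r. With *Hsp90aa1* and *Hspd1* in turn, *Hsp90b1* of the ER list had 0.95 and 0.90, *Hspa4l* 0.93 and 0.90, *Ppid* of the co-chaperones of HSP90 0.89 and 0.85, *Dnaja1* 0.83 and 0.81 and *Hspa9* of the mitochondrial list 0.77 and 0.79. The list of *Hsf1*, *Hsf2*, *Hsf4* and *Hsbp1* had median r from −0.20 (with *Hspa8*) to 0.03 (with *Hspe1*). Its highest gene was *Hsf1* for *Hspa1a* (0.58) and *Hspa1b* (0.52), and *Hsf2* for *Hspa8* (0.58), *Hspd1* (0.57), *Hsp90aa1* (0.54), *Dnajb1* (0.54) and *Hsph1* (0.50). The values were lower for *Hsp90ab1* (*Hsf1*, 0.27), *Hspb1* (*Hsf1*, 0.26) and *Hspe1* (*Hsbp1*, 0.18). The highest genes of a list were chosen after their values were seen.

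The 10 genes were searched for heat shock elements in promoters taken from the RefSeq annotation of GRCm38.p6, 300 bases each, with 250 before the transcript start and 50 from it onward. The promoter table used held entries for 7 of the 10 genes, 10 promoters in all, and held none for *Hsp90aa1*, *Hsp90ab1* and *Hspa8*. An element of 3 units, GAANNTTCNNGAA or its other strand TTCNNGAANNTTC, was in 198 of all 32851 promoters (0.603%). An element of 2 units, GAANNTTC or TTCNNGAA, each of which reads the same on both strands, was in 4946 (15.1%), and every 3-unit match also holds 2-unit matches. Positions are counted from the transcript start, taken as 0.

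The 3-unit element was matched in *Hspe1*, at −89 to −77 and, overlapping it, at −84 to −72. The same bases, read on the other strand, lie at −144 to −132 and −139 to −127 of 1 *Hspd1* promoter, while the other *Hspd1* promoter had no match. *Hsph1* had a 3-unit match after its start, at 36 to 48 in 1 promoter and 15 to 27 in the other, and a 2-unit match at −33 to −26 in the first. *Hspa1a* and *Hspa1b* each had a 2-unit match at −104 to −97, *Hspb1* had 2 such matches and *Dnajb1* none. For 5 genes a window with a match before the start is shown, to let the letters of the chaperones be compared, with the matched letters in capitals. Each was matched letter for letter to the mm9 (NCBIM37) genome, at chr17:35109188-35109215 for *Hspa1a*, chr17:35096270-35096297 for *Hspa1b* and chr5:150438927-150438954 for *Hsph1*, all on the minus strand, and at chr5:136363671-136363700 for *Hspb1* and chr1:55144897-55144926 for *Hspe1* on the plus strand. The 28 bases of *Hspa1a* and *Hspa1b* are identical, the *Hsph1* window overlaps an annotated exon of that gene, and the *Hspe1* window lies in an exon of *Hspd1*. The mm9 start of *Hsph1* (150438951, minus strand) falls within its window. That match is thus before the start in the promoters used but not in the mm9 annotation.
Hspa1a: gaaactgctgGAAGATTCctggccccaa
Hspa1b: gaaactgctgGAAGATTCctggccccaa
Hsph1: ggtagaatctTTCTCGAAggctcgagaa
Hspb1: aGAAGTTTCcagatgggggcaGAACCTTCc
Hspe1: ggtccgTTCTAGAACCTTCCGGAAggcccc
A match is a description of these letters and not a measured binding site. *Hspd1* and *Hspe1*, whose matches are the same bases, had r = 0.16 between libraries (permutation p = 0.529). *Hspa1a* and *Hspa1b*, whose windows are identical, had r = 0.47 (permutation p = 0.0702), and 0.14 without HFD → RC replicates 17 and 13. A link between matches and correlations was not tested.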

How the data were processed

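RNA-seq of 21 VH libraries was used as deposited. The authors aligned reads to mm9 with STAR 2.5.1b, merged runs with Picard 2.7.1, used PORT to drop reads of ribosomal RNA and mitochondria and to re-sample each library to 1 depth, and deposited counts of whole reads per gene. The kit was stranded, and whether counting used the strand is not stated in the sources used here. The authors' MAANOVA results and deposited raw reads were not used here. Genes averaging at least 50 reads (12768) were normalized by TMM and tested with the edgeR 4.0.16 quasi-likelihood F-test (R 4.3.3) with a mean per group, and p-values were adjusted by Benjamini-Hochberg over all of them (threshold 0.15). Each library counted as 1 replicate of pooled mice, so p-values measure the spread between these libraries. Correlations used TMM log2 CPM (prior count 2) with group means taken off, and 100000 two-sided permutations within groups (numpy 2.4.6 and scipy 1.17.1 under Python 3.11.15, with pandas 2.3.3 for tables and matplotlib 3.10.9 for figures). Permutation p-values of the alternatives, left-out libraries included, used 10000 permutations. Gene positions and exon lengths are those of the NCBIM37 (mm9) annotation. The scripts were tested on simulated data. Named were the 10 chaperones, for each list the genes called or else the 2 with the smallest p over the 4 groups, and the 3 genes most correlated with each chaperone. The chaperones and lists were chosen with earlier results of these data known. Alternatives were DESeq2 1.42.0 and limma-voom (limma 3.58.1), no TMM, other filters (at least 5 reads, or none), robust dispersion, only the groups compared, *Hspa1a* and *Hspa1b* summed, log2 of count + 1, group means kept, each library left out and, chosen after seeing the data, the share of 0 counts as a covariate, a GC and length correction and levels per kilobase of the longest transcript.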

Additional observations from a re-analysis of the deposited data

Results flagged for a closer look

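In each diet group, the highest and the lowest library of each chaperone, and of the share of 0 counts, were checked for a distance from the rest of the group that is wide against the group's range (Dixon's test at 95%). Chance flags about 1 in 20 groups, and 4 of 44 stood out. *Hsph1* had 7029 reads in HFD NoDS replicate 20, where the other libraries of the group had 9465 to 10102. *Hspd1* had 2323 reads in the same library, where the others had 3373 to 3657. *Hsp90ab1* had 50082 reads in HFD → RC replicate 17, where the others had 43167 to 44613. *Hspb1* had 423 reads in that library, where the others had 111 to 185. These libraries also had the highest shares of 0 counts, 32.9% and 31.9%, and the part of that share in these values was not tested.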

How the results depend on the processing

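No chaperone was called in any of the 246 test and setting combinations, by edgeR, DESeq2 or limma-voom, and the lowest adjusted p was 0.192. Of the log2 fold changes under alternatives, 777 kept their direction and 25 did not. With the share of 0 counts as a covariate, HFD NoDS over RC NoDS was 0.020 for *Hsph1*, and HFD → RC over RC → HFD was −0.052 for *Hspa1b* and −0.000952 for *Hsp90ab1*. Limma-voom gave −0.010 for *Hsph1* in the latter. With each library left out in turn, HFD NoDS over RC NoDS ran from −0.044 to 0.075 for *Hsph1* and from −0.025 to 0.11 for *Hsp90aa1*. HFD → RC over RC → HFD ran from −0.12 to 0.42 for *Hspa1a*, −0.10 to 0.17 for *Hspa1b*, −0.068 to 0.061 for *Hsph1*, −0.032 to 0.019 for *Hsp90ab1* and −0.47 to 0.12 for *Hspb1*. The r of *Hspe1* and *Hspd1* ran from −0.050 to 0.34. The r of *Hspa1b* and *Hsp90aa1* (−0.27) was 0.34 with the GC and length trend taken off. Pairs of chaperones with a permutation p under 0.05 numbered 16 with group means kept, and 6 to 14 with a library left out. In each case the cause was not tested. Per kilobase of the longest transcript, which is shorter than the joined exons, *Hsph1*, *Hspa8* and *Hspe1* rose more than 1.5-fold, the same reads being divided by fewer bases.

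Over all genes, DESeq2 called more than edgeR in every test, 17 against 10 for RC NoDS v HFD NoDS, 147 against 36 for RC NoDS v HFD → RC, 133 against 19 for all 4 groups and, the widest as a ratio, 116 against 4 for the interaction. The 36 became 7 by limma-voom, 10 without TMM and 1 with the share of 0 counts as a covariate. With a library left out, the edgeR counts ran from 5 to 14 for RC NoDS v HFD NoDS, 1 to 41 for RC → HFD v HFD → RC, 4 to 11 for RC NoDS v RC → HFD, 1 to 13 for HFD NoDS v HFD → RC, 1 to 205 for RC NoDS v HFD → RC, 1 to 31 for RC → HFD v HFD NoDS, 0 to 124 for the interaction and 9 to 80 for all 4 groups. The counts of 41, 205 and 80 were without HFD → RC replicate 16. No paired analysis was possible because replicate numbers are not shared between groups. At 5 or 6 libraries a group, the interval of *Hspa1b* (0.27 to 1.09) and those of *Hspa1a* and *Hspb1* are wide. A difference of such genes may not be detectable with this number of libraries and this spread between them.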
